A study of Mus musculus with 2 samples.

Results

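The cells described here are the brain natural killer (NK) cells that carried the most transcripts of 7 genes: Nr4a1, Nr4a3, Nfkbid, Ccl3, Ccl4, Xcl1 and Tnfrsf9. NK barcodes were those with at least 300 genes, at most 10% mitochondrial UMIs (unique molecular identifiers, each standing for 1 captured transcript), at least 1 UMI of Ncr1 or Klrb1c, at most 2 summed UMIs of Itga1, Cxcr6, Inpp4b, Gzmc and Tnfsf10, and no UMI of Cd3d, Cd3e, Cd3g, C1qa, C1qb or C1qc. The 10% of NK barcodes with the highest share of their UMIs in the 7 genes, ranked over both libraries together, are called members. They numbered 290 of 2902 NK barcodes and of 3404 barcodes in all. The other 2612 NK barcodes are the remaining NK barcodes.

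NK cells had been sorted by flow cytometry from the brains of untreated female mice at 8 months of age and read as single cells with a 10x Genomics kit that captures the 5′ end of transcripts. There was 1 library of wildtype C57BL/6 mice and 1 of 3XTg-AD mice, a transgenic line used as a model of Alzheimer's disease, whose further genetic background the sources used here leave out, as they do the number of mice per library. The libraries held 5559995 and 5468455 UMIs in 1709 wildtype and 1695 3XTg-AD barcodes, of which 1445 and 1457 were NK barcodes with a median of 2864 and 2777 UMIs.

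NK cells are innate lymphocytes that kill infected or altered cells and call in other immune cells through secreted chemokines. When activating receptors bind a target, signals through tyrosine kinases, calcium and the transcription factors NFAT, AP-1 and NF-κB turn on early genes within a short time. Among these are the nuclear receptors of the NR4A family, the zinc finger factors of the EGR family, inhibitors that feed back on NF-κB, and the chemokines Ccl3, Ccl4 and Xcl1. In mouse T cells and NK cells, Nr4a1 is widely used as a readout of recent antigen receptor or activating receptor signalling.

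The members were chosen by the measured UMI shares of the 7 genes, so the values of these genes are a description and carry no test. Every other gene was read in the same barcodes, so ratios of members to remaining NK barcodes are a description too. With 1 library per genotype there was no replicate, no test was made, and every 95% interval covers counting error only. It leaves out variation between mice, preparations and cells.

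The share of a barcode's UMIs in the 7 genes was continuous, and the members are the upper end of a range. Its median was 0.0412% over all NK barcodes, 0.566% in members and 0.0356% in the remaining NK barcodes, and 967 NK barcodes (33.3%) held no UMI of the 7 genes. The nearest shares inside the cut were 0.2565% and 0.2577%, and the nearest outside it were 0.2563% and 0.2548%. Within 10% of the cut lay 54 barcodes, 28 of them members. The highest share was 9.80%. Behind a member stood a median of 20 UMIs of the 7 genes in wildtype and 19 in 3XTg-AD, and 20 (19.2%) and 39 (21%) members rested on fewer than 10.

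**Figure D1:**
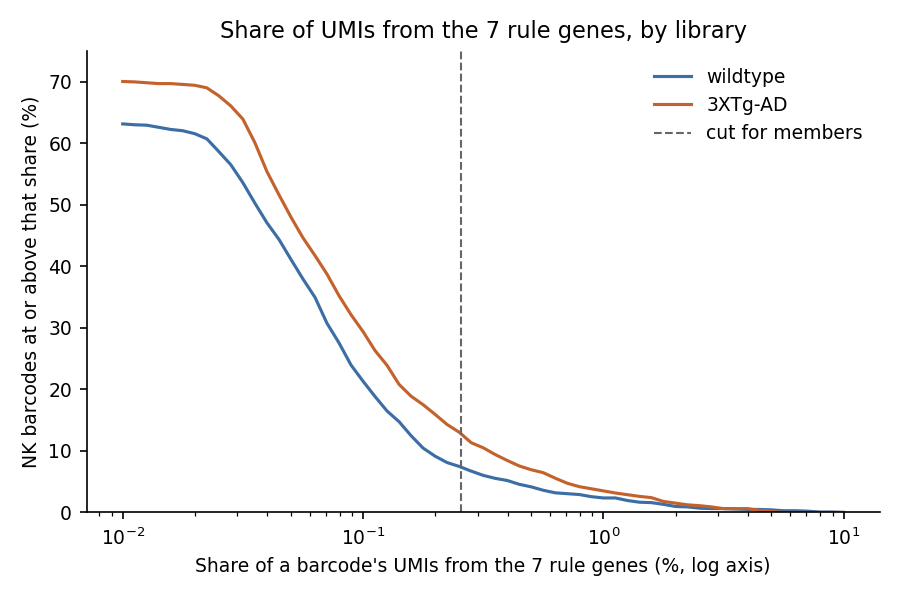
Share of a barcode's UMIs from the 7 genes (percent, log axis) against the percentage of NK barcodes of each library at or above that share (vertical axis). The dashed line is the cut for members, and the curves fall smoothly through it, with 12.8% of 3XTg-AD and 7.20% of wildtype NK barcodes to its right.

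The working label of these cells, receptor-triggered Nr4a1 and chemokine-high, names genes that the ranking itself used, so high counts of them are no check of it. The counts behind the ranking were mostly those of chemokines. Ccl4, a chemokine that draws T cells and myeloid cells, supplied 71.5% of the 7 genes' UMIs in wildtype members and 68.1% in 3XTg-AD members. It made up more than the other 6 genes together in 73.1% (95% interval 63.5 to 81.3) of wildtype members and in 69.9% (62.8 to 76.4) of those of 3XTg-AD. Nr4a1 was detected in 25% (17.0 to 34.4) and 25.3% (19.2 to 32.1) of members, with 118 and 218 UMIs, against 1.19% and 1.57% of the remaining NK barcodes, with 17 and 23 UMIs. No value in these libraries records which receptor, if any, had been engaged. Most members had no Nr4a1 UMI, and the barcodes are therefore called only members, by the rule that chose them.

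Among the chemokines, Ccl4 had 2783 UMIs in wildtype members and 689 in the remaining wildtype NK barcodes, and 4173 and 884 in 3XTg-AD. Its neighbour Ccl3, a related chemokine, had 435 and 449 UMIs in wildtype and 653 and 552 in 3XTg-AD. Xcl1, a chemokine for cross-presenting dendritic cells that bear XCR1, had 375 and 475 UMIs in wildtype and 698 and 354 in 3XTg-AD. Members, 7.20% and 12.8% of the NK barcodes, thus held most of each library's Ccl4 UMIs. Ccl3 and Ccl4 lie close together on chromosome 11, from 83647844 to 83649355 and from 83662584 to 83664683 (GRCm38, GENCODE M21).

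Of the other 4 genes, Nfkbid, which encodes the nuclear NF-κB regulator IκBNS, had 78 UMIs in wildtype members and 83 in the remaining NK barcodes, and 134 and 82 in 3XTg-AD. Tnfrsf9, the costimulatory receptor 4-1BB, had 80 and 209 UMIs in wildtype and 203 and 180 in 3XTg-AD. Nr4a3, a nuclear receptor related to Nr4a1, had 23 and 25 UMIs in wildtype and 52 and 30 in 3XTg-AD. Members with at least 1 UMI of these 4 genes, Nr4a1 included, numbered 62 of 104 (59.6%) in wildtype and 122 of 186 (65.6%) in 3XTg-AD. The others, 42 and 64, were members by their chemokine UMIs alone, and no member lacked all 3 chemokines.

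**Figure D2:**
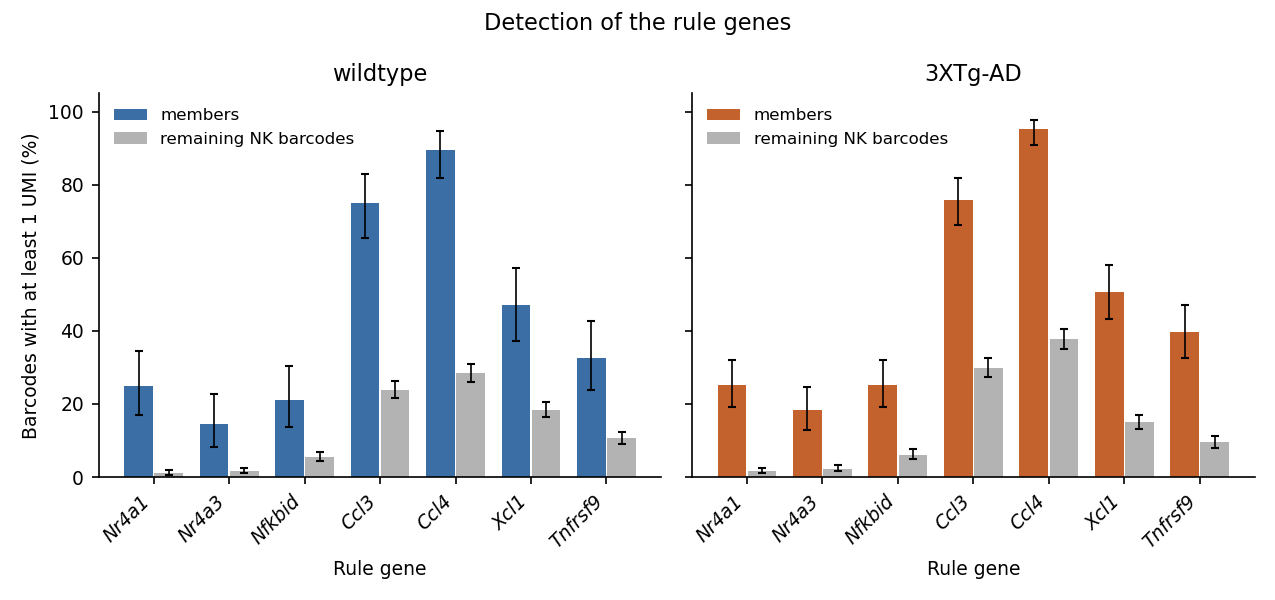
Percentage of barcodes with at least 1 UMI (vertical axis) of each of the 7 genes in members (coloured bars) and remaining NK barcodes (grey bars) of each library, with exact 95% binomial intervals. Ccl4 was found in 89.4% of wildtype and 95.2% of 3XTg-AD members and Nr4a1 in 25% and 25.3%.

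Each of the 7 genes was also read in barcodes ranked by the other 6, so that its own counts took no part in the choice. Nr4a1 then stood at 296 CPM (counts scaled to a fixed library total, without the UMIs of the 7 genes) in the top 10% and 8.91 in the rest of the wildtype NK barcodes, 33.2-fold (95% interval 22.5 to 49.9), and at 346 and 6.59 in 3XTg-AD, 52.6-fold (34.7 to 83.1). Ccl4 stood 20.2-fold higher in wildtype and 13.8-fold in 3XTg-AD. Tnfrsf9 had the smallest ratios, 3.63-fold (2.71 to 4.80) and 4.89-fold (3.97 to 6.01). All 7 genes were past 1.5-fold in both libraries. The ranking by the other 6 genes chose largely the same barcodes, from 194 of the 290 members without Ccl4 to 289 without Nr4a3, and the 7 genes had been put together with earlier results known, so these ratios are a description as well. In wildtype, 33 of 42 NK barcodes with an Nr4a1 UMI (78.6%) also had Ccl4, against 442 of 1403 without it (31.5%). Their median depths were 3243 and 2857 UMIs. With Xcl1 the shares of the other chemokines were close to those without it in wildtype, where Ccl4 was found in 32.5% of barcodes with Xcl1 and 33.0% of those without it, and Ccl3 in 24.7% and 28.3%. In 3XTg-AD these shares were 54.9% and 42.8% for Ccl4 and 40.1% and 34.7% for Ccl3, at median depths of 3131 and 2722 UMIs.

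Free RNA can give UMIs in barcodes of cells that do not express a gene. Barcodes with at least 3 C1q UMIs, a microglia and macrophage mark, were taken as cells that should lack Xcl1, but Ncr1 was found in 4 of 8 of them in wildtype and 15 of 30 in 3XTg-AD, so they give no clean level of free RNA. Xcl1 was found in 1 of 8 of them in wildtype and 4 of 30 in 3XTg-AD (13.3%), at median depths of 3206 and 3583 UMIs. The exact intervals of these shares were 0.316 to 52.7% and 3.76 to 30.7%. The remaining NK barcodes, at 18.3% and 14.9% and medians of 2858 and 2748 UMIs, lay inside them. Members were at 47.1% in wildtype, also inside the interval, and at 50.5% in 3XTg-AD. The ranking used Xcl1 itself, so high Xcl1 in members follows in part from the choice and gives no check on free RNA. Whether free RNA gave these UMIs was not tested. Tnfrsf9 was found in 0 of 30 3XTg-AD barcodes with at least 3 C1q UMIs, with an exact interval that reaches 11.6%. The 9.52% of the remaining 3XTg-AD NK barcodes lay inside it, so this 0 does not place the background of Tnfrsf9. Microglia transcribe Ccl3 and Ccl4 themselves, so these genes give no background level here.

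Across the transcriptome, 113 of 7118 genes with at least 100 UMIs over the NK barcodes (1.59%) were at least 1.5-fold higher in members in both libraries, and 233 (3.27%) at least 1.5-fold lower. All CPM values of genes other than the 7 leave out the UMIs of the 7. The 20 higher genes whose intervals lay farthest from 1 in both libraries were Egr1, Bcl2a1b, Gadd45b, Nfkbia, Bcl2a1d, Prr7, Nfkbiz, Litaf, Icam1, Bcl3, Nr4a2, Tnfaip3, Tagap, Serpina3g, Tnfsf14, Csrnp1, Ifng, Srgn, Ier2 and Irf8. Without each gene's top member barcode the higher count was 66 in place of 113, so 1.5-fold depended on a single barcode for the difference. All 20 named genes stayed past 1.5-fold in both libraries without it.

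**Figure D3:**
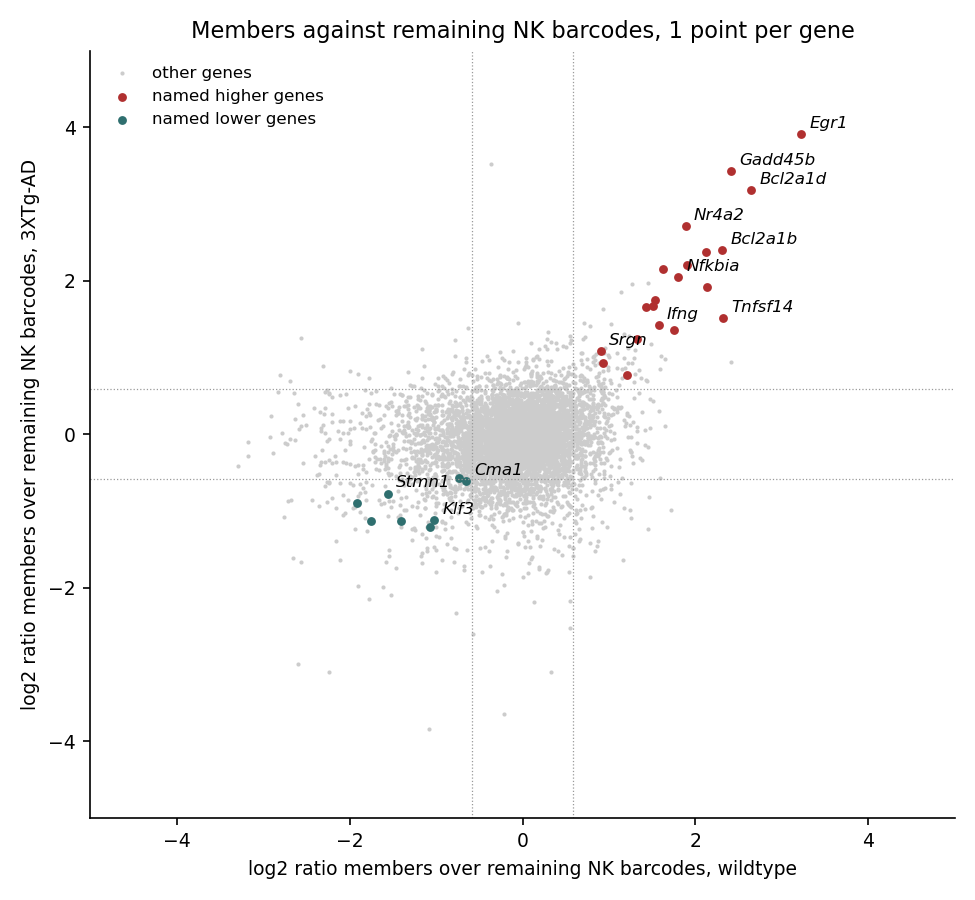
Log2 ratio of members over remaining NK barcodes in wildtype (horizontal axis) and 3XTg-AD (vertical axis), 1 point per gene with at least 100 UMIs, without the 7 genes and without genes that had no UMI in the members of a library. Dotted lines mark 1.5-fold, and the named higher genes (red) reach 3.22 and 3.91 for Egr1, while the named lower genes (green) lie below 0 in both libraries.

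The transcription factors of the NR4A and EGR families outside the 7 genes were all higher. Egr1, an immediate early zinc finger factor, was at 202 CPM in wildtype members and 21.7 in the remaining NK barcodes, a ratio of 9.33 (6.70 to 12.9), and at 226 and 15.0 CPM in 3XTg-AD, a ratio of 15.0 (11 to 20.8). Single barcodes held 22 of its 67 wildtype and 29 of its 141 3XTg-AD UMIs, and without them the ratios were 6.26 and 11.9. Egr1 UMIs were found in 22.1% and 26.3% of members, against 3.65% and 2.91% of the remaining NK barcodes. Egr2, a related factor known to restrain T cell activation, had 11 and 6 UMIs in wildtype members and remaining NK barcodes and 33 and 9 in 3XTg-AD, ratios of 23.0 (7.79 to 75.6) and 22.3 (10.4 to 52.9). Egr3 ratios were 25.1 (7.80 to 93.4) and 40.5 (12 to 213), on 10 and 20 member UMIs. Nr4a2 was the least raised of the 4, at 3.70 (2.06 to 6.34) and 6.55 (4.39 to 9.78). The background for this and the following lists is that of the 9788 genes with at least 20 UMIs, of which 2.73% were 1.5-fold higher in both libraries and 6.63% lower, with median log2 ratios of −0.08 and −0.06. For these 4 factors the medians were 3.87 in wildtype and 4.19 in 3XTg-AD.

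AP-1 and other immediate early genes were less uniformly high. Of 19 measured, 5 were 1.5-fold higher in both libraries (Zfp36, Ier2, Junb, Fos and Dusp1) and none was lower, with medians of 0.71 and 0.40 on the log2 scale. Zfp36, which encodes an RNA-binding protein that shortens the life of cytokine mRNAs, was at 262 CPM in wildtype members and 136 in the remaining NK barcodes, and at 365 and 167 in 3XTg-AD. Fos was at 21.1 and 12.3 CPM in wildtype, on 7 member UMIs, and at 92.8 and 34.8 in 3XTg-AD. The Fos ratio in wildtype, 1.72 (0.658 to 3.81), had an interval that held 1, and that in 3XTg-AD was 2.67 (1.93 to 3.66). Jun, its usual partner, was at 36.2 and 52.7 CPM in wildtype and at 114 and 130 in 3XTg-AD, with both intervals holding 1. Dusp1 shares exon sequence with Ergic1 on the opposite strand, and 21 of its 62 3XTg-AD member UMIs came from 1 barcode.

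NF-κB pathway and target genes formed the longest run of higher genes. Of 23 measured, 13 were 1.5-fold higher in both libraries and none was lower, with medians of 0.93 and 0.80 on the log2 scale. Nfkbia encodes IκBα, the inhibitor that NF-κB itself induces and that holds it in the cytoplasm. It was at 709 CPM in wildtype members and 203 in the remaining NK barcodes, a ratio of 3.49 (3.01 to 4.04), and at 757 and 183 in 3XTg-AD, a ratio of 4.14 (3.68 to 4.66). Tnfaip3, the ubiquitin-editing inhibitor A20, was at 84.5 and 27.4 CPM in wildtype and at 125 and 27.9 in 3XTg-AD, ratios of 3.08 and 4.47. The atypical IκB proteins were high as well, Nfkbiz at ratios of 4.39 and 3.80 and Bcl3 at 2.84 and 3.19, beside Nfkbid among the 7 genes. Icam1, the adhesion ligand of LFA-1, was at ratios of 3.37 (2.63 to 4.29) and 2.56 (2.09 to 3.12), although 25 of its 87 wildtype member UMIs lay in 1 barcode. Gadd45b, a stress-inducible regulator of MAP kinase signalling, was at ratios of 5.34 (3.13 to 8.84) and 10.8 (7.46 to 15.7).

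Survival genes of the A1 type, known NF-κB targets, were also high. Bcl2a1b was at 139 CPM in wildtype members and 27.9 in the remaining NK barcodes, and at 152 and 28.7 in 3XTg-AD, ratios of 4.97 (3.45 to 7.05) and 5.29 (3.98 to 7.04). Bcl2a1d was at ratios of 6.26 and 9.11. These genes are near-identical copies on chromosome 9, and the split of counts between them is uncertain. Of 18 other survival and death genes, only Cdkn1a, a cell cycle inhibitor, was 1.5-fold higher in both, at ratios of 5.31 and 1.91.

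The promoters of 3 regulators that feed back on NF-κB, Nfkbia, Tnfaip3 and Nfkbid, the last a gene of the rule, are shown with that of Nr4a1, also of the rule. Each runs from 250 bases before to 50 bases after a RefSeq start site (GRCm38.p6), 5′ to 3′ in the direction of the gene. They lie at chr15:101266596-101266895 on the plus strand for Nr4a1, chr7:30422156-30422455 on the plus strand for Nfkbid, chr12:55492598-55492897 on the minus strand for Nfkbia and chr10:19015361-19015660 on the minus strand for Tnfaip3. RefSeq gives 3 such windows for Nfkbid and 2 for Tnfaip3, and the single window of each that holds a match is shown, while the others hold none. Capitals mark a κB match in Nfkbia, a cAMP response element in Nfkbid and an AP-1 match in Tnfaip3.
Nr4a1: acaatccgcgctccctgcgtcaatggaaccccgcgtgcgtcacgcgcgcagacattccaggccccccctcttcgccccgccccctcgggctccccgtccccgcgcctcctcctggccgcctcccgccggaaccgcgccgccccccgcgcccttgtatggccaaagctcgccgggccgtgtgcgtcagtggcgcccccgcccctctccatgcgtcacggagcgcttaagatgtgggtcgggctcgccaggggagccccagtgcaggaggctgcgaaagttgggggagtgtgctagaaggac
Nfkbid: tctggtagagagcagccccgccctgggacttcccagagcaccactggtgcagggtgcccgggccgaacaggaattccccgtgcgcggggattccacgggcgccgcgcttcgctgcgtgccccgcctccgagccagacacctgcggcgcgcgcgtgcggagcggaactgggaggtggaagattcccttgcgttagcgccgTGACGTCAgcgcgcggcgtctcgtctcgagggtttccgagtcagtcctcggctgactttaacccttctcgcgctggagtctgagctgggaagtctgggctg
Nfkbia: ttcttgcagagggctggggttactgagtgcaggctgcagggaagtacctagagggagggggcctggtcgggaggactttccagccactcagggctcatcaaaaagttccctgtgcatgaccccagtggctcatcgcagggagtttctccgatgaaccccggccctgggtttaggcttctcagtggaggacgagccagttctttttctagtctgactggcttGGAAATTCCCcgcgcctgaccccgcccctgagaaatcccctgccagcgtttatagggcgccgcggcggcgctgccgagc
Tnfaip3: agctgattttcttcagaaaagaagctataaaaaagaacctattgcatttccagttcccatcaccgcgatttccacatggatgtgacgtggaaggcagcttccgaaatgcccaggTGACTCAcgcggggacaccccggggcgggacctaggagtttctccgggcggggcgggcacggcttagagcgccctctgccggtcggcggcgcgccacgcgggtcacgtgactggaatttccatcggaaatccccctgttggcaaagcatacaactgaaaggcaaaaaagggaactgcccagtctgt
For κB, the letters searched on both strands were GGGA and TTCC with any 2 bases between them. They are 1 form of the κB site, and other forms were not searched, so unmarked stretches may hold them. For the cAMP response element the letters were TGACGTCA and for AP-1 TGANTCA. The last 3 windows hold 1 match each. Of all 32851 promoters, 1.47% held the κB letters, 1.79% the cAMP response element and 7.81% the AP-1 letters. Among the 20 higher genes, 17 had an entry, with 23 promoters, of which 1 held the κB letters, 5 the AP-1 letters (Bcl2a1b, Bcl2a1d, Csrnp1, Tnfaip3 and Tnfsf14) and none the cAMP response element. Of the 10 lower genes named below, 8 had an entry, and none of their 10 promoters held any of the 3 motifs. A match is a description of the sequence and shows no binding, and Nr4a1 held none of these exact letters in this window.

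Genes downstream of calcium, NFAT and ERK were mixed. Of 20 measured, 5 were higher in both libraries (Rgs16, Dusp2, Orai1, Spry2 and Nfatc1) and none was lower, with medians of −0.04 and 0.37 on the log2 scale. Dusp2, a nuclear MAP kinase phosphatase, was at 597 CPM in wildtype members and 242 in the remaining NK barcodes, and at 479 and 277 in 3XTg-AD, ratios of 2.47 (2.11 to 2.87) and 1.72 (1.51 to 1.96). Rgs16, a brake on G protein signalling from chemokine receptors, had ratios of 28.2 (7.87 to 125) and 19.2 (7.39 to 58.8), on 9 and 19 member UMIs. Activation surface genes gave 3 of 15, namely Cd160, Tnfrsf1b and Cd69. Cd69, an early activation antigen that retains lymphocytes in tissue, had 14 and 86 UMIs in wildtype and 20 and 45 in 3XTg-AD, ratios of 2.04 (1.07 to 3.61) and 2.70 (1.51 to 4.67).

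Of the secreted factors outside the 7 genes, 3 of 16 were 1.5-fold higher in both libraries, Ifng, Tnfsf14 and Tnfsf8. Ifng, the macrophage-activating cytokine of NK cells, was at 115 CPM in wildtype members and 38.5 in the remaining NK barcodes, and at 78.4 and 29.2 in 3XTg-AD, ratios of 2.98 (2.03 to 4.26) and 2.68 (1.88 to 3.79). Its UMIs were found in 24.0% and 19.9% of members. Tnfsf14, or LIGHT, was at ratios of 4.98 and 2.86. Tnf had 1 and 8 member UMIs and Csf2 2 and 1, too few to place. Ccl5, a chemokine that resting NK cells already hold as mRNA, was at 28682 and 27784 CPM in wildtype and 33911 and 30873 in 3XTg-AD, ratios of 1.03 and 1.1.

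Cytotoxic granule genes had medians near those of all genes, at 0.07 and −0.02 on the log2 scale, while 3 of 18 were 1.5-fold higher in both libraries (Stx11, Srgn and Serpinb6b) and Gzmk was lower. Srgn, the proteoglycan on which granule proteins are packed, was at 1418 and 756 CPM in wildtype and at 1641 and 773 in 3XTg-AD. Gzmb, a granzyme made on activation, was at 7800 CPM in wildtype members and 2608 in the remaining NK barcodes, a ratio of 2.99 (2.86 to 3.12), and at 1889 and 1533 in 3XTg-AD, a ratio of 1.23 (1.16 to 1.31). Prf1, the pore-forming perforin, was at ratios of 1.78 and 1.28. The difference between the libraries in these ratios was not tested.

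Receptors and their proximal signalling genes differed little. None of 17 activating receptors and ITAM adaptors and none of 21 proximal signalling genes was 1.5-fold higher or lower in both libraries. Ncr1, the receptor NKp46, was at 1755 and 1643 CPM in wildtype and 2217 and 2233 in 3XTg-AD. Irf8, a transcription factor needed for NK cell responses to virus in mice, was at ratios of 2.30 (2.09 to 2.53) and 1.70 (1.57 to 1.85), and Myc, which drives growth, at 2.20 and 3.63. Ribosome biogenesis genes gave 3 of 25 higher (Ppan, Nop16 and Eif1a), with medians of 0.33 and 0.31, while no gene of 16 in glycolysis or of 24 in oxidative phosphorylation moved 1.5-fold in both.

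**Figure D4:**
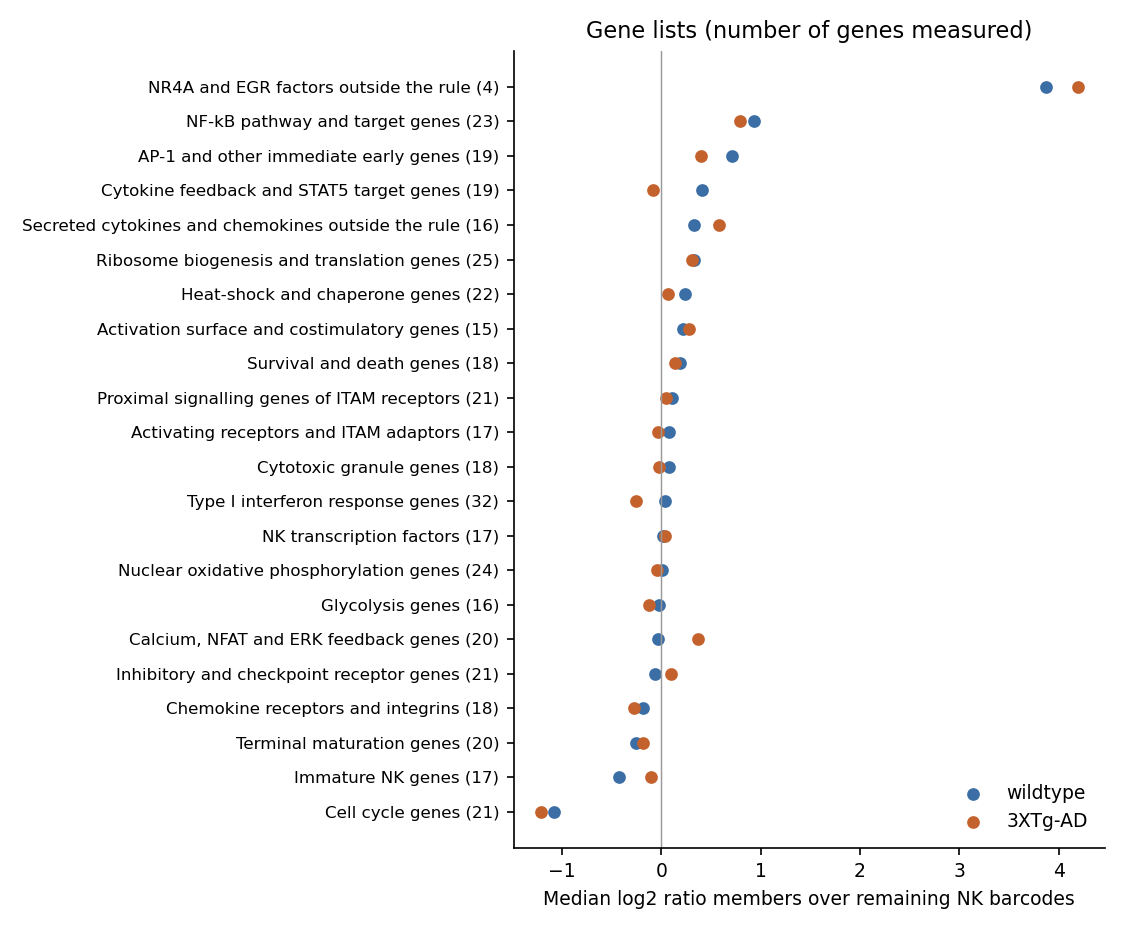
Median log2 ratio of members over remaining NK barcodes (horizontal axis) for 22 gene lists in wildtype (blue) and 3XTg-AD (orange), with the number of genes measured in parentheses. The NR4A and EGR list is highest at 3.87 and 4.19 and the cell cycle list lowest at −1.08 and −1.21, and NF-κB genes stand next to the top at 0.93 and 0.80.

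The 10 lower genes farthest from a ratio of 1 were Hist1h2ap, Hmgb2, Cenpf, Stmn1, Tnfaip8l2, Klf3, Rap2a, Arhgap45, Mki67 and Cma1. Cell cycle genes led them. Of 21 measured, 12 were 1.5-fold lower in both libraries and none higher, with medians of −1.08 and −1.21, or −0.79 and −1.06 with genes at 0 in the members set to 3 UMIs over a library's members. Mki67, a marker of dividing cells, had 0 and 4 UMIs in members and 65 and 84 in the remaining NK barcodes. Cenpf, a centromere protein of dividing cells, had no UMI in any member and 69 and 38 in the remaining NK barcodes. These UMIs lay in few barcodes, 17 in each library for Mki67 and 10 in each for Cenpf, and a single barcode held 32 of the 69 wildtype Cenpf UMIs. At 1.27% and 1.34% of the remaining NK barcodes for Mki67 and 0.746% and 0.787% for Cenpf, few member barcodes would carry them at the same rate. Hmgb2, a chromatin protein abundant in dividing cells, was at 175 and 369 CPM in wildtype and 168 and 390 in 3XTg-AD, ratios of 0.474 (0.358 to 0.617) and 0.431 (0.350 to 0.526).

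Some genes of other lists were lower too. Klf3, a transcriptional repressor, was at 75.4 CPM in wildtype members and 153 in the remaining NK barcodes, and at 75.2 and 163 in 3XTg-AD. S1pr5, the sphingosine-1-phosphate receptor that lets NK cells leave tissues, was at 232 and 390 CPM in wildtype and 327 and 467 in 3XTg-AD, ratios of 0.595 (0.467 to 0.748) and 0.699 (0.602 to 0.809), the second short of 1.5-fold. Cma1, a mast cell chymase that mature mouse NK cells also transcribe, was at ratios of 0.635 and 0.655. Of 20 terminal maturation genes, S1pr1 and Cma1 were 1.5-fold lower in both libraries, with medians of −0.26 and −0.19, and of 17 immature NK genes Lef1, Il7r and Cd200r1, with medians of −0.43 and −0.10. Beside the 6.63% of all genes, these are counts of 2 and 3 genes, and S1pr1 and Il7r rest on 1 and 8 and on 6 and 9 member UMIs, so the lists as a whole are not called lower. Tnfaip8l2, a negative regulator of immune receptor signalling in mice, was at 33.2 and 125 CPM in wildtype and 70.4 and 131 in 3XTg-AD.

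The ranking also held finer order. The members of each library were split at their median share, and the remaining NK barcodes into those at 0 and 4 bins of rising share. Nfkbia was at 177 CPM in wildtype barcodes at 0, 270 in the fourth bin, 230 in the lower-ranked members and 1236 in the upper-ranked members. In 3XTg-AD it was at 181, 175, 309 and 1192 CPM. Egr1, Icam1 and Gadd45b were also highest in the upper-ranked members, in wildtype at 342, 444 and 120 CPM against 74.8, 97.9 and 23.0 in the lower-ranked. Unlike wildtype Nfkbia, Egr1 was already higher in the lower-ranked members than in the fourth bin, at 24.7 CPM in that bin in wildtype. In 3XTg-AD, Egr1 was at 42.6 in the fourth bin and 84.5 in the lower-ranked members, and Gadd45b at 22.0 and 52.0. Klf3, in contrast, went from 209 CPM at 0 to 79.3 in the fourth bin and 69.1 and 82.4 in the members of wildtype, and from 173 to 123, 68.2 and 82.0 in 3XTg-AD. Nfkbia, Icam1 and Gadd45b, all of the NF-κB list, were thus highest in the upper-ranked members. The low Klf3 was shared by both groups of members and, in wildtype, by the fourth bin of the remaining NK barcodes.

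**Figure D5:**
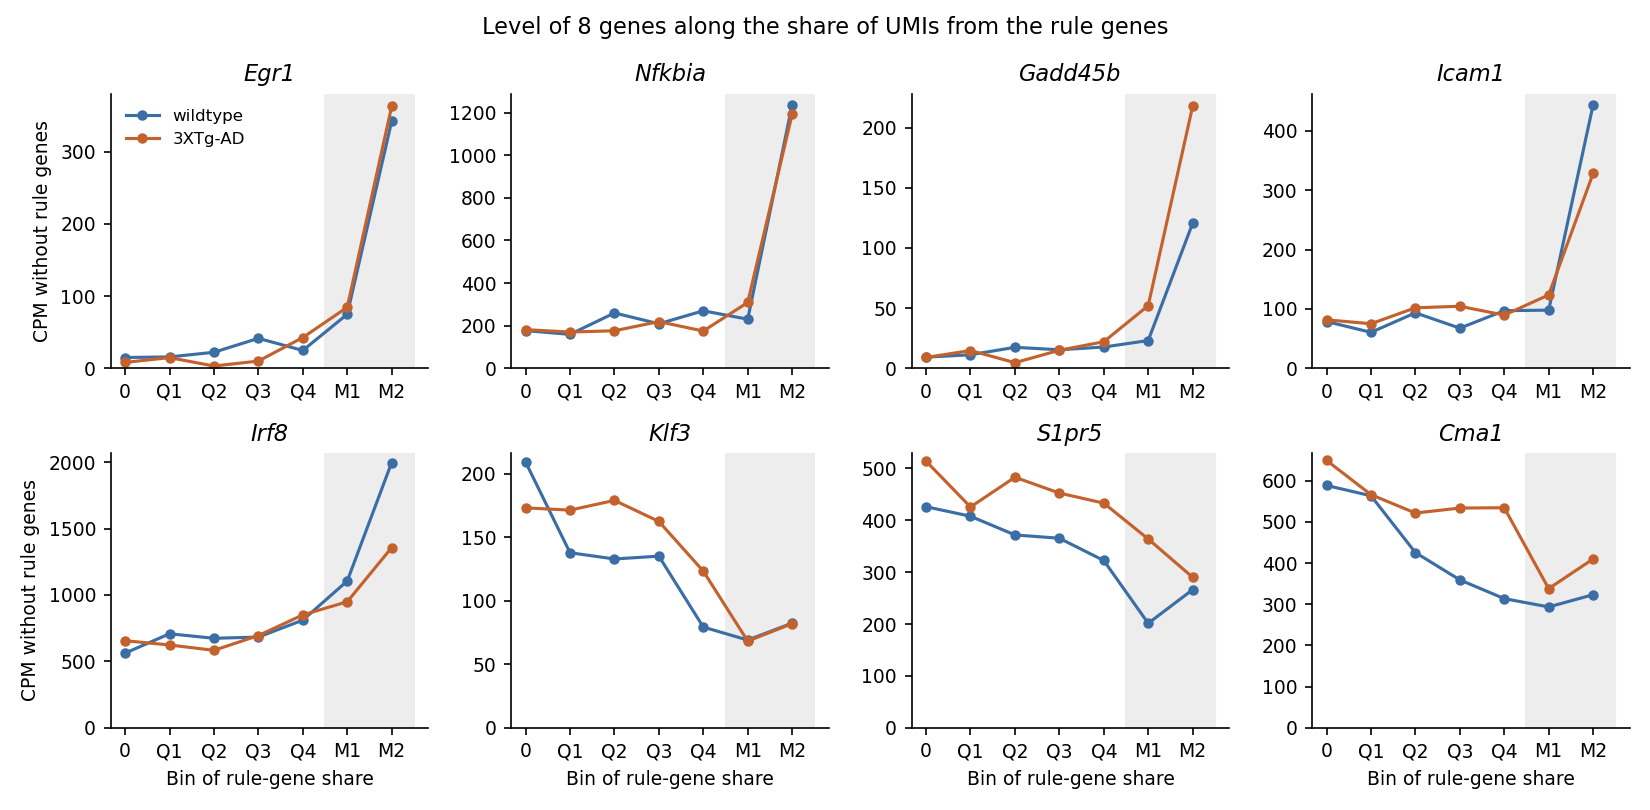
Level of 8 genes (CPM without the 7 genes, vertical axes) in NK barcodes with no UMI of the 7 genes (0), in 4 bins of rising share (Q1 to Q4), and in lower-ranked (M1) and upper-ranked members (M2, grey band) of each library. Egr1, Nfkbia, Gadd45b and Icam1 were highest in M2 in both libraries, Nfkbia at 1236 and 1192, while Klf3, S1pr5 and Cma1 were lower in the members than at 0.

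A like split was seen by kind of member for some genes and not for others. Members with a UMI of Nr4a1, Nr4a3, Nfkbid or Tnfrsf9 had Nfkbia at ratios of 4.78 and 5.30 to the remaining NK barcodes, and members with none of these 4 at 1.22 and 1.54. Tagap, a GTPase-activating protein of activated lymphocytes, was at 3.80 and 4.27 in the former and 0.76 and 0.70 in the latter. Icam1 was at 4.88 and 3.13 against 0.75 and 1.29. Egr1 was high in both kinds, at 12 and 17.6 with a UMI of the 4 and at 4.59 and 9.35 without. The kinds were split on genes of the rule, and the first also held more Ccl4, at ratios of 62.4 and 33.9 against 29.9 and 16.9. This split is therefore not separate from the one by rank. The members of the first kind were deeper too, with median UMIs of 3167 and 3100 against 2586 and 2760. The parts of depth and rank in this split were not tested.

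Members made up 7.20% (5.92 to 8.65) of NK barcodes in wildtype and 12.8% (11.1 to 14.6) in 3XTg-AD, 104 and 186 barcodes, a ratio of 1.77 (1.39 to 2.28). Ranked by Nr4a1, Nr4a3, Nfkbid and Tnfrsf9 alone the ratio was 1.37 (1.08 to 1.74). Thinned to 1400 UMIs, Ccl4 was found in 22.5% (20.2 to 24.8) of NK barcodes in wildtype and in 31.3% (28.9 to 33.9) in 3XTg-AD, and Xcl1 in 13.8% and 13.1%, with 114 and 79 shallower barcodes left out. Unthinned, these shares were 32.9% and 45.2% for Ccl4 and 20.4% and 19.5% for Xcl1. Genotype, mice, preparation and library cannot be told apart in this design.

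Members were found in all NK subsets looked at. Barcodes with Klra8, the receptor Ly49H for a cytomegalovirus protein, held 6.56% members in wildtype and 12.8% in 3XTg-AD, and barcodes without it 7.80% and 12.7%. Among Klrg1-positive, Cd27-negative barcodes, the terminal stage, members were 7.05% and 12.2%, and among Cd27-positive, Klrg1-negative ones 5.98% (2.44 to 11.9) and 17.8% (10.5 to 27.3). The intervals of each such pair overlapped, although the 17.8% of 3XTg-AD lay above the interval of the terminal stage (9.78 to 14.9), on 16 members.

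Between the libraries, 68 of 1444 genes with at least 100 UMIs in members (4.71%) were at least 1.5-fold higher in 3XTg-AD members and 44 (3.05%) lower. The same genes in the remaining NK barcodes gave 34 (2.35%) and 15 (1.04%), and 20 of the higher and 13 of the lower genes passed in both. These counts are not on a par, because members held 335428 wildtype and 630883 3XTg-AD UMIs and the remaining NK barcodes 4155977 and 3796979. Counting error is thus wider in members, and with a minimum of 500 UMIs their counts were 6 and 1. Whether the libraries differed more in members was not tested. The granzyme gene Gzmb was at 0.242 (0.226 to 0.260) of its wildtype level in 3XTg-AD members and at 0.588 (0.569 to 0.607) in the remaining NK barcodes. Socs1, a feedback inhibitor of cytokine signalling, was at 0.224 and 0.474, and Gadd45g, induced by cytokines, at 0.223 and 0.475. Bcl2, the survival factor, was at 0.375 (0.292 to 0.480) and 0.766 (0.707 to 0.829). Wls, the carrier of Wnt proteins, was at 0.146 and 0.147, the same in members as in the rest. Higher in 3XTg-AD members were Hspa8, a constitutive chaperone, at 2.09 and 2.0, and Klra8 at 2.23 and 1.89. Of the 20 genes named as higher in members, 15 had intervals that held 1, such as Nfkbia at 1.07 (0.912 to 1.25), Egr1 at 1.12 (0.829 to 1.52) and Ifng at 0.684 (0.439 to 1.07). The other 5 did not, with Serpina3g at 0.448 (0.353 to 0.567), Irf8 at 0.756 (0.674 to 0.848), Srgn at 1.16 (1.04 to 1.29), Gadd45b at 1.96 (1.23 to 3.26) and Bcl2a1d at 2.03 (1.03 to 4.36).

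The members of the libraries also differed in which other high sets they fell in, and both sets were ranked over both libraries together. The set ranked by Gzmb and Socs1 uses the counts of genes just named, so it restates their values and is no separate check. The 10% of NK barcodes with the highest share of Gzmb and Socs1 UMIs took in 42 of 104 wildtype members (40.4%) and 14 of 186 3XTg-AD members (7.53%), against 13.1% and 4.56% of the remaining NK barcodes. The 10% with the highest share of heat-shock gene UMIs took in 3 wildtype (2.88%) and 46 3XTg-AD members (24.7%), against 0.969% and 17.9%. Over both libraries, 56 and 49 of the 290 members were in these sets (19.3% and 16.9%), which by definition hold 10% of all NK barcodes. The sets were uneven between the libraries. The first held 218 wildtype and 72 3XTg-AD barcodes, and the second 16 and 274. The median share of UMIs in heat-shock genes was 0.602% and 0.859% in members and 0.472% and 0.801% in the remaining NK barcodes. No heat-shock gene of 22 was 1.5-fold higher in both libraries, and without the heat-shock barcodes the member share ratio was 1.66. Without them 106 genes were higher and 213 lower in members, in place of 113 and 233, and between the libraries 58 and 50, in place of 68 and 44.

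Markers of other cells had low summed levels in members beside those of NK cells, but not always below the remaining NK barcodes. All 12 NK markers were detected, with summed levels of 43449 and 39598 CPM in members and 40540 and 42609 in the remaining NK barcodes. Microglia and macrophage markers summed to 247 and 263 CPM in members and 233 and 331 in the remaining NK barcodes, and 10 of 14 were at 0 in all members, among them C1qa, C1qb and C1qc, which the rule barred. T cell markers summed to 87.5 and 138 CPM against 113 and 108, with 8 of 10 at 0, although the rule itself barred Cd3 genes. Trac, the T cell receptor α constant gene, was at ratios of 3.02 (1.12 to 7.06) and 2.02 (1.25 to 3.19) on 7 and 26 member UMIs. B cell markers summed to 45.2 and 72.0 CPM against 48.6 and 45.6. Erythroid markers summed to 15.1 and 0 CPM in members against 1423 and 0.264, and neutrophil markers to 0 and 8.00 against 0.722 and 2235. Over 20% of UMIs came from erythroid genes in 2 NK barcodes and from neutrophil genes in 1, and 0 of these were members. Neural and vascular markers summed to 99.5 and 81.6 CPM against 93.9 and 69.0. Of 2 measured in that list, Pecam1 was 1.5-fold higher in both libraries, at ratios of 1.92 and 1.52. The type 1 innate lymphoid markers, of which the rule capped 5, summed to 99.5 and 70.4 CPM against 150 and 98.6. Of the 10 measured, 3 were 1.5-fold lower in both libraries, while 1 of the capped genes, Gzmc, was higher. Gzmc was at ratios of 5.70 and 4.86, on 25 UMIs over all NK barcodes. At least 1 UMI of 61 markers of other cells, each found in at most 5% of NK barcodes, lay in 32 of 290 members and in 286 of all 2902 NK barcodes. Doublet calls fell on 2 wildtype and 1 3XTg-AD members. The libraries shared 1 barcode sequence.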

How the data were processed

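The deposited values are raw counts of UMIs per gene and barcode, in a matrix for each library, as the authors left them. The submitters' processing notes name Cell Ranger 3.1.0, STAR and mm10, and per the file headers the matrices were written by software 3.0.2. The sources used here do not give the annotation release. Paired reads of 75 bases were taken, per the labels' protocols.

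The members, gene lists and settings were chosen with earlier results of these data known. Counts were summed over members and over the remaining NK barcodes of each library and scaled to CPM without the UMIs of the 7 genes. Ratios have exact conditional binomial 95% intervals and shares exact Clopper-Pearson intervals. Genes needed 100 UMIs over all NK barcodes (between libraries, over members), and list genes 20. Named were the 20 higher and 10 lower genes whose intervals lay farthest from a ratio of 1 in the library nearer to it, the 8 higher and 8 lower between libraries by the same distance, up to 4 genes per list, and a fixed set, leaving out the genes of the rule, ribosomal protein, mitochondrial and predicted genes and receptor variable segments. Not all are printed. For thinned shares each barcode was drawn down to 1400 UMIs. Scrublet marked doublets in each library alone (13 wildtype and 22 3XTg-AD barcodes), and they were kept except in an alternative. The calculation was tested on simulated data. Python 3.11.15, scipy 1.17.1 and scanpy 1.11.5 were used. Promoters come from RefSeq (GRCm38.p6) and gene coordinates from GENCODE M21, matched by Ensembl identifier. With 1 library per group, there was no test and no p-value. Alternatives changed the ranking, the cut, the scaling, the UMI minimum and the barcodes left in.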

Additional observations from a re-analysis of the deposited data

Results flagged for a closer look

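Barcodes outside the NK rule also passed the cut for members. Of barcodes with over 2 UMIs of the 5 type 1 innate lymphoid genes and no Cd3 or C1q UMI, 16 of 90 in wildtype (17.8%, 95% interval 10.5 to 27.3) and 8 of 67 in 3XTg-AD (11.9%, 5.30 to 22.2) held at least the members' share of the 7 genes. Xcl1 was found in 93.3% and 94.0% of all 90 and 67 of these barcodes, which no ranking had chosen, and Tnfrsf9 in 55.6% and 49.3%, while Nr4a1 was found in 0 of 90 and 0 of 67, which allows shares of up to 3.33% and 4.48%. Their median depths were 5281 and 5514 UMIs. The exact intervals reach 4.02% and 5.36%. Over all NK barcodes, Nr4a1 was found in 2.91% and 4.60%, shares that lie inside those exact intervals, in barcodes whose depth had a median of 2864 UMIs in wildtype and 2777 in 3XTg-AD.

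Several genes lay on opposite sides of 1 in the libraries, with both counting intervals clear of 1, and none of these differences was tested. Bcl2, which guards cells from death, was higher in members than in the remaining NK barcodes in wildtype, at a ratio of 1.33 (1.12 to 1.56), and lower in 3XTg-AD, at 0.650 (0.531 to 0.790). Gzma, the most abundant granzyme gene of these cells, was at 1.06 (1.03 to 1.08) in wildtype and 0.834 (0.817 to 0.851) in 3XTg-AD. Tyrobp, the adaptor DAP12, was at 0.935 (0.885 to 0.988) and 1.04 (1.0 to 1.09).

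Other genes differed between 3XTg-AD and wildtype in opposite directions in members and in the remaining NK barcodes. Spp1, which encodes osteopontin, was at 5.04 (2.43 to 12.1) of its wildtype level in 3XTg-AD members and at 0.339 (0.232 to 0.487) in the remaining NK barcodes, but 39 of its 76 UMIs in 3XTg-AD members came from 1 barcode. Crtam, an adhesion receptor of activated lymphocytes, was at 3.08 (1.18 to 10.2) and 0.547 (0.308 to 0.945), on 5 wildtype and 29 3XTg-AD member UMIs. Dusp2 was at 0.801 (0.667 to 0.964) and 1.15 (1.05 to 1.25). Gzma was at 0.809 (0.785 to 0.834) and 1.03 (1.02 to 1.04).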

How the results depend on the processing

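The member share ratio of 1.77 kept its direction under each alternative for which it was computed. It lay between 1.37 (1.08 to 1.74), with Nr4a1, Nr4a3, Nfkbid and Tnfrsf9 alone in the ranking, and 1.83. It was not computed for the top 10% of each library alone or for equal member numbers, where the choice fixes the shares. The ranking by Nr4a1, Nr4a3, Nfkbid and Tnfrsf9 shared 129 of 290 barcodes (44.5%) with the members, and a ranking by the 3 chemokines shared 276 (95.2%). Counts of genes moved with the cut and the UMI minimum. With a cut at 5%, 451 genes were lower in members, and 41 were higher and 20 lower in 3XTg-AD members. A cut at 20% gave 71 higher and 101 lower in members and 133 and 74 between libraries. With the ranking by the 4 genes, 148 were lower. A minimum of 20 UMIs gave 267 higher and 649 lower in members and 799 and 490 between libraries, a minimum of 500 UMIs gave 32, 17, 6 and 1, and no minimum gave 405, 1818, 3222 and 2194. Without each gene's top barcode, chosen after seeing the data, 66 were higher and 195 lower. The 20 named higher genes stayed between 0.61 and 4.01 in mean log2 ratio over 15 alternatives, and 8 of the lower genes, those with UMIs in both libraries' members, between −1.79 and −0.33. The mean log2 ratio of the interferon response gene Ifi206 turned to 0.23 with a cut at 20%. The cause was not tested. No paired analysis was possible because each group has 1 library.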

Other observations

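Cytokine feedback and STAT5 target genes differed in how they went with the members. Of 19 measured, 2 (Irf8 and Myc) were 1.5-fold higher in members in both libraries and none was lower, with median log2 ratios of 0.41 in wildtype and −0.08 in 3XTg-AD. Socs1 was at 308 CPM in wildtype members and 135 in the remaining NK barcodes, a ratio of 2.28 (1.83 to 2.82), and at 68.8 and 64.0 in 3XTg-AD, a ratio of 1.07 (0.758 to 1.49). Cish, another inhibitor of cytokine receptors, was at ratios of 2.45 (1.57 to 3.70) and 1.38 (0.780 to 2.33). Whether these ratios differ between the libraries was not tested.

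Inhibitory and checkpoint receptors gave 0 of 21 genes at least 1.5-fold higher in both libraries and Cd200r1 lower. Chemokine receptors and integrins gave Cxcr4 and S1pr1 lower of 18, on 2 and 7 member UMIs of Cxcr4 and 1 and 8 of S1pr1. Type I interferon response genes gave 2 of 32 higher (Ifi204 and Oas3) and 2 lower (Ifi206 and Mx1), on few UMIs, with medians of 0.04 and −0.26.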
